A study of Mus musculus with 14 samples.

Results

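The nuclear genes of respiratory complexes III, IV and V were followed across mouse LLC1 tumours. Members were all genes whose symbol begins with Uqcr, Cox4 to Cox8 or Atp5, or is Cyc1, with the pseudogenes Atp5l-ps1 and Atp5l2-ps left out. This gave 40 genes of the 21152 in the table, of which 9 belong to complex III, 14 to complex IV and 17 to complex V. The rule uses symbols and no expression value, although earlier results of these data were known when it was set. LLC1 is the Lewis lung carcinoma line, and the tumours were taken from mice after 16 days of treatment. The groups were the combination of MYCi975 and TMP195 (3 libraries), MYCi975 alone at 50 mg/kg (4 libraries), TMP195 alone at 50 mg/kg (3 libraries) and the DMSO vehicle (4 libraries). MYCi975 is a compound that inhibits MYC, a transcription factor of growth genes, and TMP195 inhibits class IIa histone deacetylases. The sources used here do not give the doses within the combination or the strain, sex and age of the mice. The study asked which transcriptional changes these drugs cause in tumours, and its title names mitochondrial dysfunction.

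Complex III takes electrons from ubiquinol and hands them to cytochrome c, complex IV passes them from cytochrome c to oxygen, and both pump protons out of the mitochondrial matrix. Complex V, the ATP synthase, lets the protons flow back through a rotating ring and uses that flow to make ATP. Most subunits are encoded in the nucleus and imported, while a few core subunits are encoded in mitochondrial DNA, so that assembly needs both sources. MYC is known to favour transcription of many nuclear mitochondrial genes, partly through E-boxes in their promoters, and NRF1 and the ETS factor GABP are known general regulators of respiratory genes.

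The authors deposited variance-stabilised expression on a log2 scale, and all values below are on that scale, with a floor of 4.05 that is the lowest value of every library. They are not scaled to gene length, so levels were compared between libraries and not between genes. Sequencing depth is unknown, and between 880 and 2954 genes of a library sat at the floor. The label calls the material bulk tumour cells, and the protocol an enriched tumour fraction. Vim lay between 14.14 and 14.69 and Krt8 between 7.86 and 8.65 in all libraries, whereas the epithelial marker Epcam lay between the floor and 5.30 and was at the floor in 4 libraries. Ptprc, the pan-leukocyte antigen CD45, lay between 9.65 and 12.07, so leukocyte RNA was present in every library. In such material fewer cells of a type and less RNA per cell cannot be told apart. Whether each library came from a separate mouse is not stated, so the tests measure spread over libraries that may be partly technical.

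A RefSeq promoter window (build GRCm38.p6, 250 bases before to 50 after the gene start) was matched for 31 of the 40 members, 5 of complex III, 11 of complex IV and 15 of complex V. A set of 3 short patterns was searched on both strands, namely the palindrome-like NRF1 pattern with 1 free base, which reads GCGCTTGCGC or GCGCATGCGC in the windows shown here, CCGGAAG, an ETS pattern bound by GABP, and CACGTG, the canonical E-box bound by MYC. A gene with more than 1 window was counted when any of them held the pattern. The NRF1 pattern was in 8 of the 31 members (1, 1 and 6 of complexes III, IV and V), against 5.19% of 27025 genes. The ETS pattern was in 10 members (2, 3 and 5 by complex), against 9.93% of genes. The E-box was in 4 members, all of complex V, namely Atp5f1, Atp5g1, Atp5g3 and Atp5l, against 8.09% of genes. A match is a run of letters and not a shown binding site. The windows of 3 members that recur in the results are given on their gene's strand, with every match in capitals. They were chosen among members with matches and do not stand for all. Many members, among them Cox7b and Cox5b, have no match of the 3 patterns. Uqcrc1 (chr9:108936398-108936697, plus strand) holds 2 NRF1 patterns after the gene start. Atp5g3 (chr2:73911277-73911576, minus strand) holds an E-box before the start and an NRF1 pattern after it. Atp5l (chr9:44920693-44920992, minus strand) holds an E-box and an ETS pattern before the start and a further ETS pattern after it.
Uqcrc1: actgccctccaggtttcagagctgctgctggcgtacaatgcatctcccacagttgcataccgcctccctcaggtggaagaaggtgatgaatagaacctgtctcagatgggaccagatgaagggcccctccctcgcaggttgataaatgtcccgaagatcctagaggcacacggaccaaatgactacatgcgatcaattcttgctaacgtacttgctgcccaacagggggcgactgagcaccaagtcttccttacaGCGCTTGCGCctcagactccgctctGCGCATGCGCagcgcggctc
Atp5g3: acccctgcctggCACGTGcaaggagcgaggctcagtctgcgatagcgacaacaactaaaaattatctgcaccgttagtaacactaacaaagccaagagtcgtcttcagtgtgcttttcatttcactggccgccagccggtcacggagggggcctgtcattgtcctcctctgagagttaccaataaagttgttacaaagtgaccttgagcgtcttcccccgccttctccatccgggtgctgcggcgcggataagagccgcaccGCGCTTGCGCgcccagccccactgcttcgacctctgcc
Atp5l: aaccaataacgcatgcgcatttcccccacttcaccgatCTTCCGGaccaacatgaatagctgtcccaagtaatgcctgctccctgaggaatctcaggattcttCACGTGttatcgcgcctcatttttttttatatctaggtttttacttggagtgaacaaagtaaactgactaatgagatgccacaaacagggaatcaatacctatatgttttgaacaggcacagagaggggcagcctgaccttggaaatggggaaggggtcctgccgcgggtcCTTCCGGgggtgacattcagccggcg

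None of the members passed limma's test in any treatment. More members lay below than above vehicle in each comparison, though not with TMP195 once TMP195 replicate 1 was left out. With the combination 29 of 37 tested members lay below vehicle, with MYCi975 alone 26 and with TMP195 alone 25. Over all 13711 tested genes 50.3%, 48.3% and 49.2% lay below vehicle in the same 3 comparisons. The median log2 difference of the members was -0.10 with the combination, -0.09 with MYCi975 and -0.11 with TMP195, against medians over all tested genes within 0.01 of 0. The 3 comparisons share the vehicle libraries, so they are not separate evidence of a direction. With 1 library left out at a time, the medians of complexes III, IV and V with the combination ran from -0.14 to -0.04, from -0.18 to -0.05 and from -0.21 to -0.06, and with MYCi975 from -0.19 to -0.02, from -0.18 to -0.05 and from -0.07 to -0.01. With TMP195 they ran from -0.23 to 0.03, from -0.08 to 0.06 and from -0.20 to -0.05, and without TMP195 replicate 1 the number of members below vehicle was 18 of 37. The remaining 3 members, Cox4i2, Cox6b2 and Cox7a1, lay too close to the floor to be tested. By limma's test with Benjamini-Hochberg adjustment over all genes, 0 of 13711 genes (0%) and 0 of 37 members were called with the combination, with MYCi975 and with TMP195. The smallest adjusted p over all genes was 0.992 with the combination, 0.999 with MYCi975 and 0.9996 with TMP195. Taken without adjustment, a p under 0.05 was reached by 470 genes (3.43%) and 1 member with the combination, 457 genes (3.33%) and no member with MYCi975, and 381 genes (2.78%) and no member with TMP195. With 1 library left out at a time these counts ran from 235 genes (without combination replicate 1) to 725 (without MYCi975 replicate 2) with the combination, from 378 to 812 with MYCi975 and from 231 to 565 with TMP195. The members among them with the combination ran from 0 (without vehicle replicate 3 or 4) to 4 (without vehicle replicate 1). Complete separation of the libraries was counted too. All combination libraries lay below all vehicle libraries for 3.27% of tested genes and 1 member, and above them for 2.8% and no member. The shares for MYCi975 were 0.707% and 1.03%, with no member, and for TMP195 they were 1.87% with 1 member and 2.4% with none. On this variance-stabilised scale, and only if the libraries are independent tumours, the intervals bound the size of the differences. The 95% interval of the log2 difference from vehicle lay within 1 unit of 0 for 36 of 37 members with the combination and for all 37 tested members with MYCi975 and with TMP195. It lay within 0.5 units for 24, 27 and 22 members. The median width on each side was 0.35 with the combination and with TMP195 and 0.32 with MYCi975.

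Markers of skeletal muscle, a tissue rich in respiratory complexes, had lower group means than vehicle in the same comparisons. Of 10 such markers 2 were high enough to be tested, Acta1 and Myh4, and both lay below vehicle in each comparison, by a median of -1.20 with the combination, -0.45 with MYCi975 and -1.45 with TMP195. Neither was called, and Myh4 with TMP195 had an unadjusted p of 0.0459 by limma. The mean of these 2 markers, each centred on its mean over the libraries, was -0.02, 1.54, -0.53 and -0.01 in MYCi975 replicates 1 to 4. In vehicle replicates 1 to 4 it was 0.62, 1.30, 2.36 and -1.49. The direction with MYCi975 rests on vehicle replicate 3, without which the vehicle mean was the lower one. The summed value of the 10 markers was 42.7 to 49.9 in combination tumours, 47.7 to 60.2 in MYCi975 tumours, 44.0 to 47.0 in TMP195 tumours and 43.2 to 62.8 in vehicle tumours. In vehicle replicates 1 to 4 the summed value was 52.2, 55.0, 62.8 and 43.2. The mean of the tested members, each centred on its mean over the libraries, was -0.14, 0.10, 0.12 and 0.19 there. In single libraries between 4 and 10 of the markers lay above the floor, and their part in the members' values was not tested.

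**Figure D1:**
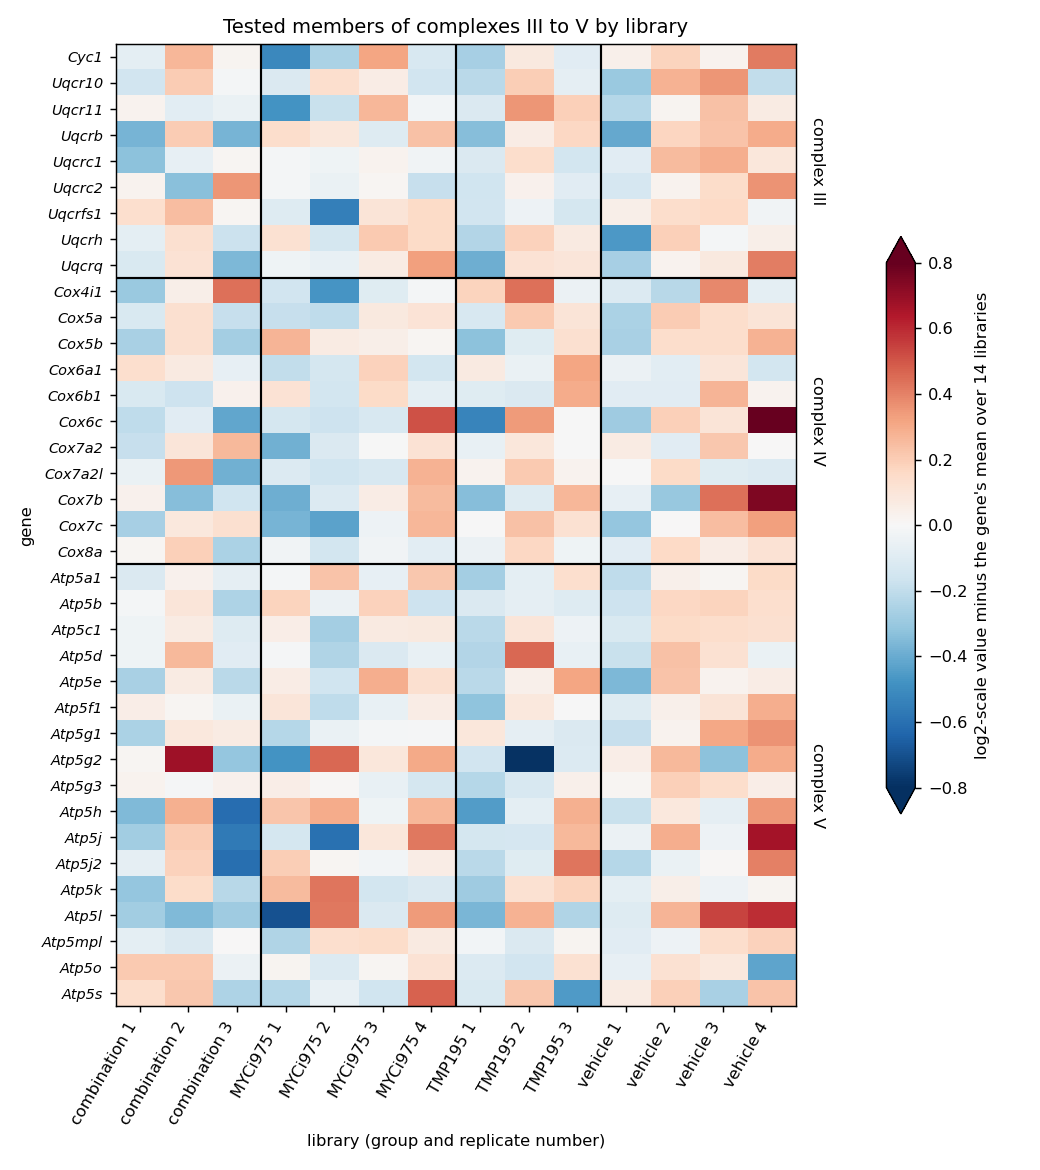
Each cell is 1 tested member (37 rows, by complex) in 1 library (14 columns, by group), and its colour is the log2-scale value minus that gene's mean over the 14 libraries. Columns differ within a group: vehicle replicates 2, 3 and 4 have 30 of 37 members above their own mean each, and vehicle replicate 1 has 6.

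**Figure D2:**
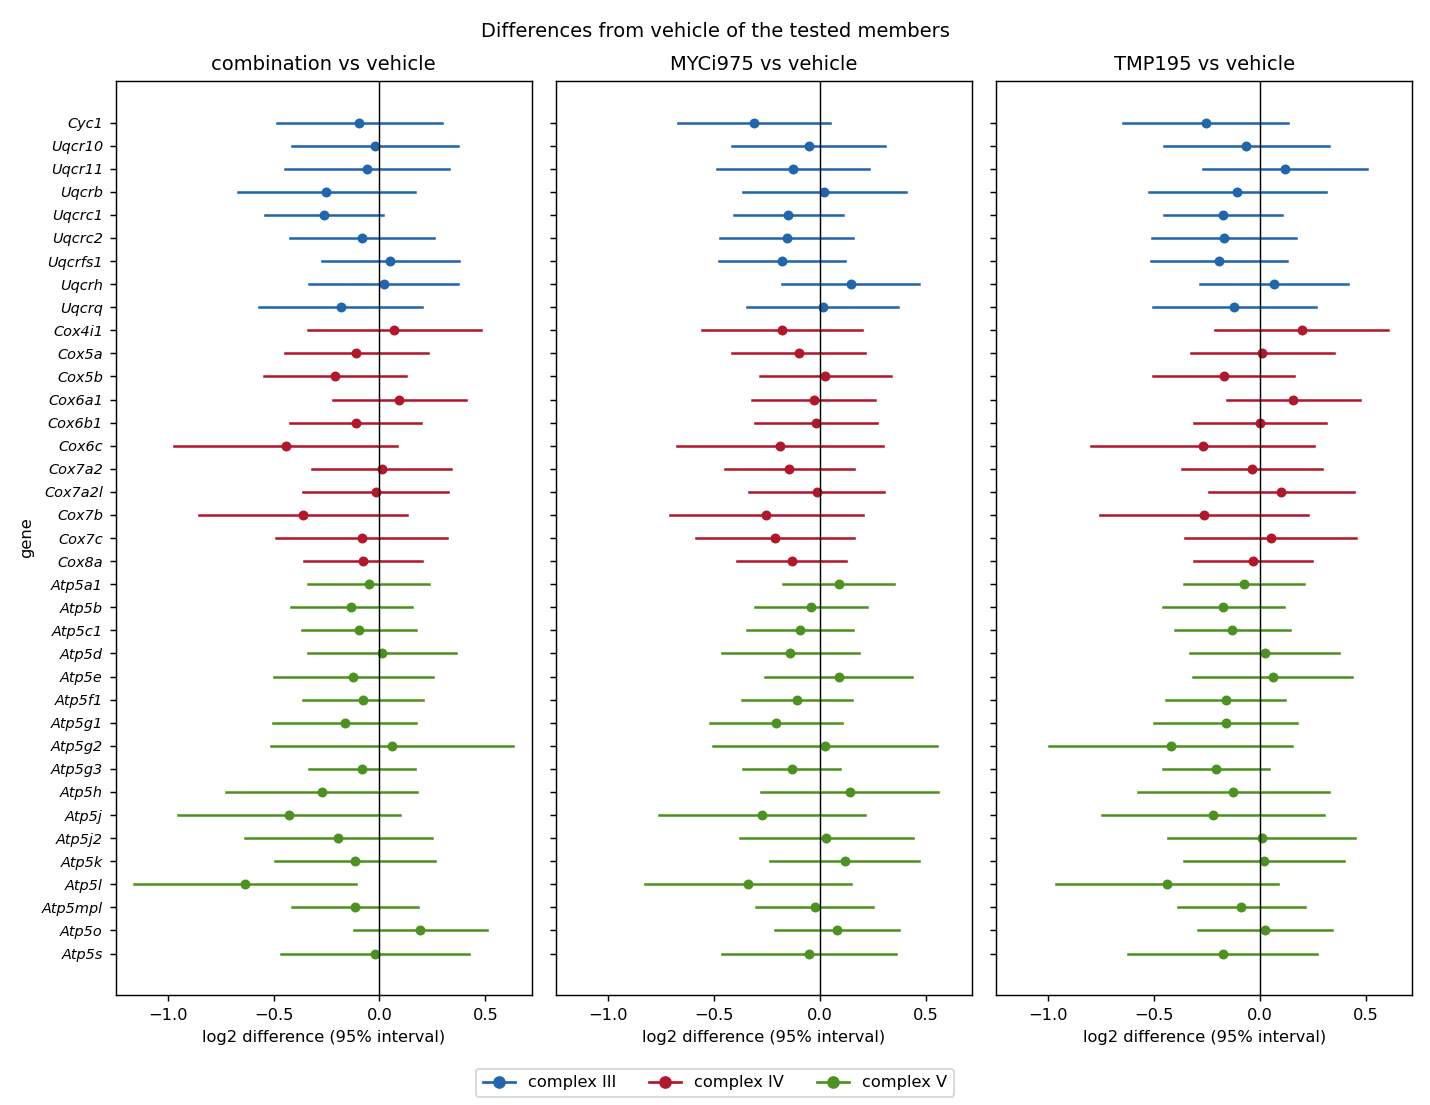
Points are log2 differences from vehicle of the 37 tested members (rows, coloured by complex) for the combination, MYCi975 and TMP195, and lines are 95% intervals of limma's fit. Most points lie left of 0, and the interval of Atp5l with the combination (-1.16 to -0.11) is the single one that does not span 0.

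Complex III is built on the core proteins Uqcrc1 and Uqcrc2, cytochrome c1 (Cyc1) and the Rieske iron-sulphur protein (Uqcrfs1), with small subunits around them. Of its 9 genes 7 lay below vehicle with the combination, 6 with MYCi975 and 7 with TMP195, and the medians of the log2 differences were -0.08, -0.13 and -0.12. Without TMP195 replicate 1, the library with the lowest complex III mean, the median with TMP195 was 0.03, so its direction rests on that library. None of the 9 genes passed the test in any of the 3 comparisons.

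Uqcrc1 (ENSMUSG00000025651.15) measured 7.91, 8.17 and 8.25 in combination tumours, 8.22, 8.20, 8.27 and 8.21 in MYCi975 tumours, 8.12, 8.38 and 8.09 in TMP195 tumours, and 8.15, 8.49, 8.53 and 8.33 in vehicle tumours. The MYCi975 libraries were within 0.1 units of each other, and vehicle replicate 1 lay among the treated libraries. Its log2 difference from vehicle was -0.26 with the combination (SE 0.13, adjusted p = 0.992 by limma), -0.15 with MYCi975 and -0.18 with TMP195. Without combination replicate 1 the difference of Uqcrc1 with the combination was -0.16. Cyc1 (ENSMUSG00000022551.9), which carries the haem that reduces cytochrome c, measured 7.20, 7.54 and 7.29 in combination tumours, 6.76, 7.02, 7.59 and 7.15 in MYCi975 tumours, 7.01, 7.36 and 7.18 in TMP195 tumours, and 7.31, 7.45, 7.30 and 7.69 in vehicle tumours. In MYCi975 tumours 3 of 4 libraries lay below every vehicle library, and MYCi975 replicate 3 lay above 3 of them. Its difference was -0.31 with MYCi975 (SE 0.17, adjusted p = 0.999), -0.26 with TMP195 and -0.10 with the combination. The MYCi975 value was -0.19 without MYCi975 replicate 1 and -0.46 without MYCi975 replicate 3, and the TMP195 value was -0.17 without TMP195 replicate 1. The combination value was -0.19 without combination replicate 2 and -0.01 without vehicle replicate 4.

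Uqcrfs1 (ENSMUSG00000038462.4) was the member with the tightest TMP195 values in complex III. It measured 8.53, 8.65 and 8.41 in combination tumours, 8.30, 7.85, 8.502 and 8.55 in MYCi975 tumours, 8.24, 8.36 and 8.25 in TMP195 tumours, and 8.45, 8.54, 8.56 and 8.37 in vehicle tumours. All 3 TMP195 libraries lay below all 4 vehicle libraries, which held for 1 member and for 1.87% of all tested genes. All 3 combination libraries lay above all 3 TMP195 libraries, which again held for 1 member and for 5.48% of genes, while 6.36% of genes and no member separated the other way. The gap between TMP195 and vehicle was narrow, 8.36 against 8.37 at its closest, and the log2 difference was -0.19 (SE 0.15, adjusted p = 0.9996). With MYCi975 it was -0.18, and -0.03 without MYCi975 replicate 2. Uqcrb, a small matrix-side subunit, measured 7.32, 7.90 and 7.33 in combination tumours, 7.84, 7.79, 7.60 and 7.94 in MYCi975 tumours, 7.36, 7.76 and 7.87 in TMP195 tumours, and 7.29, 7.87, 7.93 and 7.99 in vehicle tumours. It was low in combination replicates 1 and 3, in TMP195 replicate 1 and in vehicle replicate 1, and its difference was -0.25 with the combination, or -0.44 without combination replicate 2 and -0.15 without combination replicate 1. The other members, Uqcrc2, Uqcrh, Uqcrq, Uqcr10 and Uqcr11, ranged from -0.18 to 0.02 with the combination, from -0.16 to 0.15 with MYCi975 and from -0.17 to 0.12 with TMP195.

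Complex IV, cytochrome c oxidase, surrounds its mitochondrially encoded catalytic core with small nuclear subunits. Of the 11 tested genes 8 lay below vehicle with the combination, 10 with MYCi975 and 6 with TMP195, and the median log2 differences were -0.08, -0.13 and -0.0014. The median with TMP195 changed sign without TMP195 replicate 1, to 0.06, and without vehicle replicate 3, to 0.04. The single member above vehicle with MYCi975 was Cox5b, by 0.03. None of the 11 passed the test.

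Cox6c (ENSMUSG00000014313.16), a membrane-spanning subunit, measured 8.69, 8.80 and 8.48 in combination tumours, 8.75, 8.73, 8.77 and 9.41 in MYCi975 tumours, 8.37, 9.23 and 8.89 in TMP195 tumours, and 8.61, 9.08, 8.998 and 9.71 in vehicle tumours. The combination libraries lay together, whereas MYCi975 replicate 4 and vehicle replicate 4 stood above the rest of their groups. Its difference with the combination was -0.44 (SE 0.25, adjusted p = 0.992), and -0.24 without vehicle replicate 4. Cox7b (ENSMUSG00000031231.5), another small membrane subunit, measured 8.34, 7.96 and 8.14 in combination tumours, 7.91, 8.19, 8.36 and 8.56 in MYCi975 tumours, 7.96, 8.20 and 8.56 in TMP195 tumours, and 8.24, 8.001, 8.74 and 9.05 in vehicle tumours. Vehicle replicates 3 and 4 were above every treated library, and vehicle replicates 1 and 2 lay among the treated ones. The difference was -0.36 with the combination, -0.25 with MYCi975 and -0.26 with TMP195, and without vehicle replicate 4 it was -0.18, -0.07 and -0.08. With the replicate number as a block, which pairs libraries by number, the TMP195 value was -0.12.

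Cox7c measured 7.66, 8.01 and 8.05 in combination tumours, 7.55, 7.50, 7.89 and 8.19 in MYCi975 tumours, 7.92, 8.16 and 8.05 in TMP195 tumours, and 7.62, 7.93, 8.18 and 8.26 in vehicle tumours. It was lowest in MYCi975 replicates 1 and 2, with a difference of -0.21 with MYCi975, or -0.12 without MYCi975 replicate 2 and -0.35 without MYCi975 replicate 4. Cox5b measured 8.15, 8.54 and 8.14 in combination tumours, 8.68, 8.47, 8.46 and 8.43 in MYCi975 tumours, 8.08, 8.31 and 8.54 in TMP195 tumours, and 8.15, 8.55, 8.55 and 8.69 in vehicle tumours. Its groups overlapped, with a difference of -0.21 with the combination and -0.17 with TMP195. These were -0.34 without combination replicate 2, -0.06 without TMP195 replicate 1 and -0.29 without TMP195 replicate 3. Cox4i1, the ubiquitous form of the largest nuclear subunit, stood at 0.07 with the combination, -0.18 with MYCi975 and 0.20 with TMP195. Cox7a2l, known for its part in joining complexes III and IV into supercomplexes, stood at -0.02, -0.01 and 0.10. The 11 members ranged from -0.44 to 0.09 with the combination, from -0.25 to 0.03 with MYCi975 and from -0.27 to 0.20 with TMP195.

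Complex V consists of the catalytic head (Atp5a1, Atp5b, Atp5c1, Atp5d and Atp5e), the ring of c subunits, which Atp5g1, Atp5g2 and Atp5g3 all encode as the same mature protein, the peripheral stalk (Atp5f1, Atp5h, Atp5j and Atp5o) and small membrane subunits (Atp5j2, Atp5k, Atp5l and Atp5mpl). Atp5s fits the symbol rule but is not a structural subunit of the synthase. Of the 17 genes 14 lay below vehicle with the combination, 10 with MYCi975 and 12 with TMP195, and the median log2 differences were -0.11, -0.04 and -0.13. With the replicate block the median with TMP195 was -0.07, and without TMP195 replicate 1 it was -0.05.

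Atp5l (ENSMUSG00000038717.10), the g subunit at the membrane base where ATP synthases join into dimers, was the member farthest below vehicle in all 3 comparisons. It measured 7.65, 7.57 and 7.64 in combination tumours, 7.23, 8.35, 7.81 and 8.27 in MYCi975 tumours, 7.56, 8.20 and 7.68 in TMP195 tumours, and 7.83, 8.20, 8.47 and 8.52 in vehicle tumours. The 3 combination libraries lay within 0.1 units of each other and below all 4 vehicle libraries, a separation seen in 1 of 37 members and in 3.27% of all tested genes. The single-agent libraries spread across and beyond the range of the combination. Its log2 difference with the combination was -0.63 (SE 0.25, 95% interval -1.16 to -0.11, unadjusted p = 0.0208, adjusted p = 0.992 by limma), lower in 3 of 3 libraries. The unadjusted p was 0.0528 without combination replicate 2, 0.0541 without vehicle replicate 3 and 0.0583 without vehicle replicate 4. With MYCi975 the difference was -0.34, and -0.11 without MYCi975 replicate 1, and with TMP195 it was -0.44. The pseudogene Atp5l-ps1 may share reads with it, so its value as a single gene is uncertain.

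Leukocyte markers had lower group means than vehicle with the combination. Their group means were higher with either single agent, but those rested on MYCi975 replicate 2 and TMP195 replicate 3. All 4 markers (Ptprc, Cd53, Laptm5 and Coro1a) lay below vehicle, by a median of -0.54, and their summed value was 34.8 to 36.6 in combination tumours, against 36.5 to 39.2 in vehicle tumours. With MYCi975 and with TMP195 all 4 lay above vehicle, by medians of 0.24 and 0.22. The summed value was 39.1, 43.2, 36.9 and 37.5 in MYCi975 replicates 1 to 4, and 37.6, 38.7 and 41.0 in TMP195 replicates 1 to 3. In vehicle replicates 1 to 4 it was 39.2, 36.5, 39.1 and 38.0. Without MYCi975 replicate 2 or TMP195 replicate 3, that group's mean summed value was not above that of vehicle. Of 7 fibroblast and pericyte markers 5 lay above vehicle with the combination, with a median of 0.42, and 2 of them, Dcn and Pdgfra, had an unadjusted p under 0.05. Every one of the 4 leukocyte markers was above the floor in every library, no marker of either list was called, and their part in the value of Atp5l was not tested.

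The ring genes lay below vehicle with TMP195 in all 3 cases, without passing the test. Atp5g3 (ENSMUSG00000018770.10) measured 7.57, 7.54 and 7.58 in combination tumours, 7.60, 7.56, 7.49 and 7.40 in MYCi975 tumours, 7.32, 7.41 and 7.58 in TMP195 tumours, and 7.56, 7.73, 7.68 and 7.60 in vehicle tumours. TMP195 replicates 1 and 2 lay below every vehicle library, and TMP195 replicate 3 lay among them. Its difference with TMP195 was -0.21 (SE 0.12, adjusted p = 0.9996). Atp5g1 measured 6.48, 6.82 and 6.80 in combination tumours, 6.51, 6.68, 6.72 and 6.72 in MYCi975 tumours, 6.82, 6.66 and 6.62 in TMP195 tumours, and 6.55, 6.77, 7.04 and 7.10 in vehicle tumours. Its difference was -0.21 with MYCi975 and -0.16 with TMP195, and each group overlapped vehicle. Atp5g2 was 0.06 above vehicle with the combination and 0.02 above with MYCi975, but -0.42 with TMP195, where TMP195 replicate 2 measured 4.51, within 0.5 units of the floor. Without that library the value with TMP195 was -0.20.

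In the peripheral stalk, Atp5j measured 7.03, 7.52 and 6.75 in combination tumours, 7.17, 6.72, 7.40 and 7.73 in MYCi975 tumours, 7.17, 7.18 and 7.57 in TMP195 tumours, and 7.26, 7.60, 7.27 and 7.98 in vehicle tumours. Each treated group overlapped vehicle, and the difference with the combination was -0.43 (SE 0.25, adjusted p = 0.992), or -0.25 without combination replicate 3. Atp5o, which encodes the stalk protein OSCP that ties the stalk to the head, lay above vehicle in all 3 comparisons, at 0.19, 0.08 and 0.02. Vehicle replicate 4 measured 7.15, against 7.51 to 7.70 in the other vehicle libraries. The signs with MYCi975 (group mean 7.59) and TMP195 (group mean 7.53) rest on that library. The 5 head genes ranged from -0.13 to 0.01 with the combination, from -0.14 to 0.09 with MYCi975 and from -0.17 to 0.06 with TMP195.

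**Figure D3:**
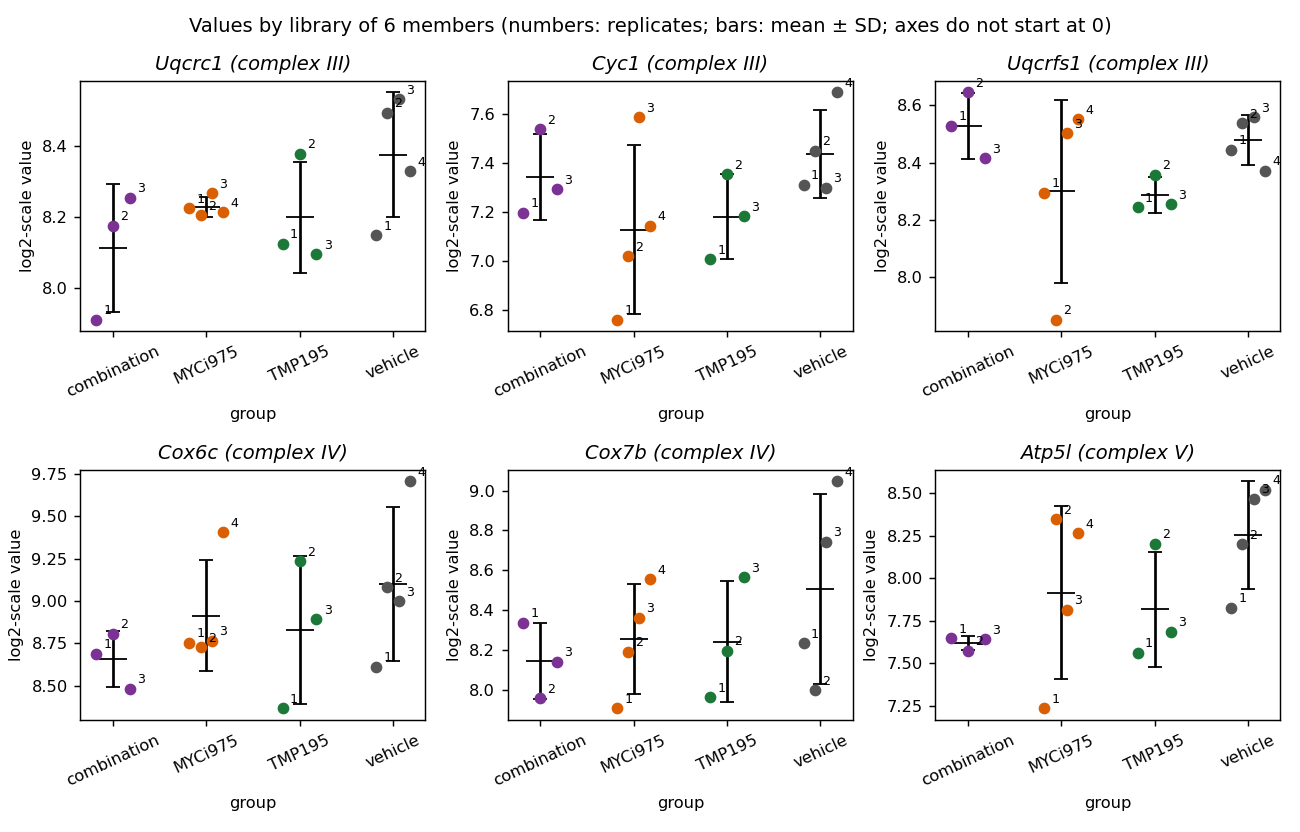
Points are single libraries (numbers are replicates) of 6 members on the log2 scale, by group, with the group mean and SD as bars. The axes do not start at 0. Atp5l in combination tumours (7.57 to 7.65) lies below all vehicle tumours (7.83 to 8.52), and Uqcrfs1 in TMP195 tumours (8.24 to 8.36) lies just below vehicle (8.37 to 8.56).

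Libraries of the same group differed by more than the group means did. In each library the members' values, centred on each gene's mean over the 14 libraries, were averaged by complex. For complex III this mean was -0.03 ± 0.09 with the combination (SD, n = 3), -0.02 ± 0.11 with MYCi975 (n = 4), -0.03 ± 0.17 with TMP195 (n = 3) and 0.07 ± 0.18 with vehicle (n = 4). For complex IV it was -0.05 ± 0.09, -0.05 ± 0.14, 0.04 ± 0.13 and 0.06 ± 0.15 in the same order of groups. For complex V it was -0.06 ± 0.17, 0.02 ± 0.07, -0.06 ± 0.12 and 0.07 ± 0.14. Every treated group overlapped vehicle in every complex. The lowest libraries came from different groups. In TMP195 replicate 1 only 4 of 37 members lay above their own mean, in vehicle replicate 1 only 6, and in combination replicates 1 and 3 and MYCi975 replicate 2 each 11. Combination replicate 2, in contrast, had 28 members above, and vehicle replicates 2, 3 and 4 had 30 each.

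**Figure D4:**
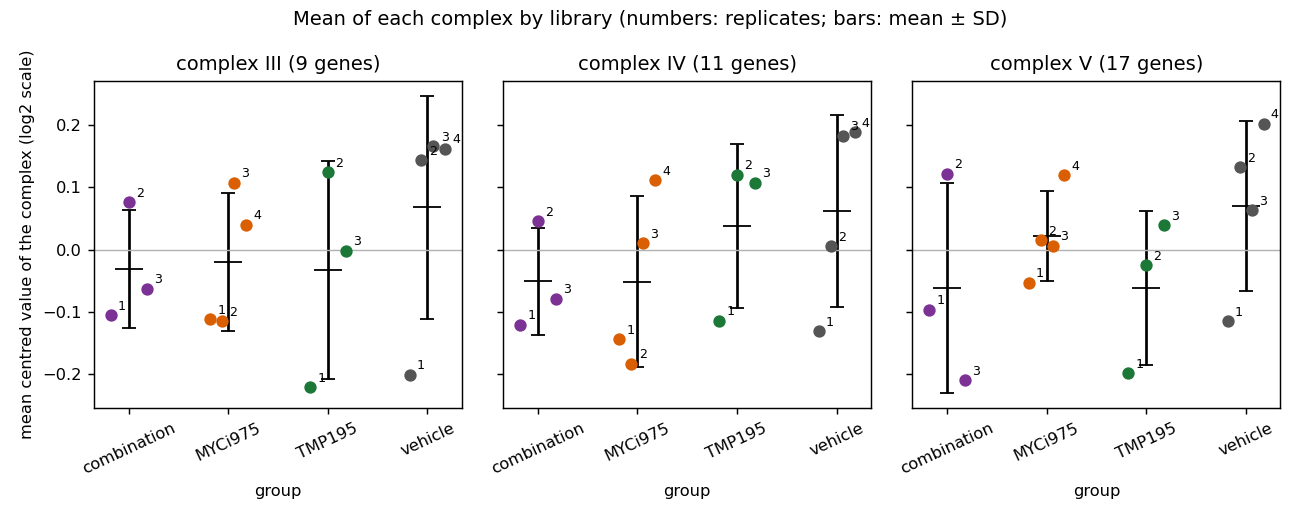
Points are libraries (numbers are replicates), placed at the mean centred log2-scale value of the tested members of complex III (9 genes), complex IV (11) and complex V (17), with group mean and SD as bars. Vehicle replicate 1 lies at -0.20, -0.13 and -0.12, below the other 3 vehicle libraries, and TMP195 replicate 1 is the lowest TMP195 library in all 3 panels.

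A difference between complexes within 1 library is free of that library's scaling. Complex IV minus complex V was 0.10 ± 0.04 with TMP195 (SD, n = 3), 0.01 ± 0.11 with the combination (n = 3), -0.07 ± 0.09 with MYCi975 (n = 4) and -0.01 ± 0.10 with vehicle (n = 4). All 3 TMP195 libraries were positive, between 0.07 and 0.15, but vehicle reached 0.12 and the groups overlapped. Complex IV minus complex III was 0.07 ± 0.06 with TMP195, -0.02 ± 0.01 with the combination, -0.03 ± 0.07 with MYCi975 and -0.01 ± 0.09 with vehicle. Complex III minus complex V lay within 0.05 units of 0 on average in every group. No treated group separated from vehicle in any of these differences.

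Set against the single agents, the combination moved no member past the test. Against MYCi975, 20 of 37 members were lower with the combination, 0 of 13711 genes (0%) were called by limma, and 1120 genes (8.17%) but no member had an unadjusted p under 0.05. No member had all combination libraries above all MYCi975 libraries, against 3.53% of genes. The medians were 0.03 for complex III, -0.0031 for complex IV and -0.09 for complex V. The member with the largest difference was the stalk gene Atp5h, at -0.41 (SE 0.21, adjusted p = 0.616), or -0.22 without combination replicate 3 and -0.67 without combination replicate 2. Against TMP195, 24 of 37 members were lower, 0 genes (0%) were called, and 603 genes (4.4%) but no member had an unadjusted p under 0.05, with medians of -0.05, -0.11 and -0.0026. Atp5g2 was 0.48 higher with the combination than with TMP195 (SE 0.29, adjusted p = 0.998), or 0.20 higher without combination replicate 2.

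The signs of these medians changed when certain single libraries were left out, except for complex IV against TMP195, which ran from -0.15 to -0.05.

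The interaction asks whether the combination differs from the sum of the single-agent differences. It was called for 0 of 13711 genes (0%), and 656 genes (4.78%) but no member had an unadjusted p under 0.05. Its medians were 0.06, 0.01 and 0.09 for complexes III, IV and V, against 0.0014 over all tested genes, and those of complexes III and IV changed sign without certain single libraries. Cyc1 stood at 0.47 (SE 0.26, adjusted p = 0.911), since it was -0.31 with MYCi975 and -0.26 with TMP195 but -0.10 with both. Uqcrfs1 stood at 0.42 (SE 0.21, adjusted p = 0.911), with -0.18, -0.19 and 0.05 in the same order. For these 2 members the 95% intervals were -0.08 to 1.02 and -0.03 to 0.88. Without MYCi975 replicate 2 the interaction of Uqcrfs1 was 0.27, and with 1 library left out at a time that of Cyc1 ran from 0.35 to 0.62. Both were singled out after their values were seen.

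Members differed in how much they varied within groups. The pooled SD within groups had a median of 0.23 in complex III, 0.20 in complex IV and 0.21 in complex V, against 0.24 over all tested genes. Atp5g3 was the steadiest member with an SD of 0.09, lower than in all but 0.481% of tested genes. Among the genes with the most spread were Atp5g2 (0.39), Cox6c (0.37), Atp5l (0.36) and Cox7b (0.34). The ring genes therefore held both ends of the range.

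Tissue-restricted isoforms were near the floor. Cox4i2, the lung and hypoxia-associated form of subunit 4, measured 4.85, 4.55 and 4.34 in combination tumours, 4.44, the floor, 4.65 and 4.70 in MYCi975 tumours, the floor, the floor and 4.67 in TMP195 tumours, and 4.51, the floor, 4.34 and the floor in vehicle tumours. It was at the floor in 5 libraries and in no combination library. Cox6b2, a testis form, was above the floor in combination replicate 3 (4.48), MYCi975 replicate 4 (4.79), TMP195 replicate 3 (4.47) and vehicle replicates 1 (4.40) and 3 (4.44), and at the floor in the other 9 libraries. Cox7a1, the heart and skeletal muscle form, was above the floor in combination replicates 2 (4.55) and 3 (4.36), MYCi975 replicates 1 (4.73) and 3 (4.54), TMP195 replicate 1 (4.34) and vehicle replicates 1 (4.32) and 3 (4.30), and at the floor in the other 7. No group had either gene above the floor in all of its libraries. The mean of 10 skeletal muscle markers ran from 4.27 to 6.28 over the libraries. Cox7a1 did not follow it over the 14 libraries (Pearson's r = -0.04, permutation p = 0.896, Spearman's rho = -0.04, permutation p = 0.910, 1 relation computed), and r was 0.10 without the 2 libraries farthest from the median marker level. Many libraries share the floor, which limits what such a relation can show.

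Some proteins bound to these complexes have genes under other symbols. Atpif1, the inhibitor of the ATP synthase, measured 8.0003, 8.21 and 8.29 in combination tumours, 8.44, 8.72, 8.59 and 8.43 in MYCi975 tumours, 7.93, 8.14 and 8.45 in TMP195 tumours, and 7.97, 8.31, 8.82 and 8.67 in vehicle tumours. It overlapped vehicle in every treated group, and its difference between the combination and MYCi975 was -0.38 (SE 0.19, adjusted p = 0.616), with all 3 combination libraries below all 4 MYCi975 libraries, as for 3.97% of tested genes and no member. Usmg5, a small subunit of complex V, stood at -0.35 with the combination, -0.27 with MYCi975 and -0.12 with TMP195. Ndufa4, which copurifies with complex IV, stood at -0.07, -0.07 and -0.13. Of the 5 tested genes among Ndufa4, Cycs and the genes that feed or make ubiquinone 5, 2 and 4 lay below vehicle with the combination, MYCi975 and TMP195. Cycs, the electron carrier cytochrome c between complexes III and IV, measured 8.59, 8.58 and 8.99 in combination tumours, 8.85, 9.08, 9.22 and 9.06 in MYCi975 tumours, 8.74, 8.71 and 8.998 in TMP195 tumours, and 8.69, 8.63, 9.03 and 9.08 in vehicle tumours. Its difference between the combination and MYCi975 was -0.33 (SE 0.15, unadjusted p = 0.0470, adjusted p = 0.611), and the groups overlapped.

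The mitochondrially encoded partners, mt-Cytb of complex III, mt-Co1, mt-Co2 and mt-Co3 of complex IV and mt-Atp6 and mt-Atp8 of complex V, varied more between libraries than the nuclear genes, with a median moderated SD within groups of 0.69, against 0.22 for the tested members. Their mean ran from 14.4 in combination replicate 3 to 16.6 in vehicle replicate 4. All 6 lay below vehicle with the combination (median -0.40), 2 with MYCi975 (median 0.03) and 5 with TMP195 (median -0.09). None was called, and the largest difference, mt-Cytb with the combination at -0.61, had a 95% interval of -1.86 to 0.65. The mean of the 6, each centred on its mean over the libraries, was 0.45, -0.25 and -1.06 in combination replicates 1 to 3. In vehicle replicates 1 to 4 it was -0.46, 0.30, -0.54 and 1.13. The size of the difference with the combination rests largely on combination replicate 3 and vehicle replicate 4. Against their means over the 14 libraries, nuclear and mitochondrial genes were both low in TMP195 replicate 1, combination replicate 3 and vehicle replicate 1. Both were high in MYCi975 replicate 4, TMP195 replicates 2 and 3, and vehicle replicates 2 and 4. The remaining libraries were on opposite sides. Combination replicate 1 and MYCi975 replicates 1 and 2 were below average in the nuclear genes and above it in the mitochondrial ones. Combination replicate 2, MYCi975 replicate 3 and vehicle replicate 3 were the reverse, and vehicle replicate 3 stood at 0.12 for the nuclear and -0.54 for the mitochondrial genes.

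Assembly factors and regulators gave no call by limma in any comparison with vehicle. Of 28 tested assembly factors of complex IV 19 lay below vehicle with the combination, 13 with MYCi975 and 21 with TMP195, with medians of -0.06, 0.02 and -0.10. Pet100, needed for complex IV assembly, had the smallest p of this list with the combination, at -0.59 (SE 0.22, unadjusted p = 0.0154, adjusted p = 0.992), and Cox14 had it with MYCi975, at -0.49 (unadjusted p = 0.0435, adjusted p = 0.999). Of 6 assembly factors of complex III 4 lay below vehicle with the combination, led by Uqcc1 (-0.37), 5 with MYCi975, led by Lyrm7 (-0.42), and 5 with TMP195, led by Bcs1l (-0.34). Of 7 assembly factors of complex V 4, 5 and 5 lay below vehicle, with medians of -0.02, -0.04 and -0.05. Among 10 tested regulators of respiratory genes 5, 4 and 5 lay below vehicle. Tfam, which packages and transcribes mitochondrial DNA, stood at -0.40 with the combination (unadjusted p = 0.0387, adjusted p = 0.992) and -0.37 with TMP195. Tfb2m, a mitochondrial transcription factor, stood at -0.52 with TMP195 (unadjusted p = 0.0325, adjusted p = 0.9996). With MYCi975, Yy1 stood at 0.28 and Pprc1, a coactivator related to PGC-1, at 0.29, each with an adjusted p of 0.999.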

How the data were processed

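RNA was sequenced from 14 libraries, per the labels' protocols with a stranded total RNA kit. The submitters' processing notes name Salmon and the build hg38, while the gene identifiers are mouse, so the build is unsettled and no coordinates come from the table. The authors deposited log2 values after a variance-stabilising transformation, per the file headers and name. Counts could not be recovered, so depth is unknown. Of 21152 identifiers 20264 (95.8%) had a symbol.

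Genes averaging over 1 log2 unit above the floor were tested (13711) with limma 3.58.1 (R 4.3.3), 1 mean per group over all 14 libraries (10 residual degrees of freedom), two-sided, with Benjamini-Hochberg adjustment over all tested genes at 0.05. The script was tested on simulated data. Replicate numbers come from the labels. The labels state no pairing, and the main fit had no replicate block. The deviations of same-numbered TMP195 and vehicle libraries correlated at 0.107, 0.172 and 0.215. No other pair of groups had every correlation over 0.1. However, TMP195 replicate 1 correlated at 0.107 with vehicle replicate 2 too. Differently numbered libraries reached 0.337, for MYCi975 replicate 2 with TMP195 replicate 3. The replicate block was run as an alternative, and whether libraries are paired is unknown. The Cox7a1 relation used 100000 permutations (scipy 1.17.1). Members and lists were chosen with earlier results of these data known. Values by library are given for the 2 tested members with the smallest p in each complex and comparison with vehicle, the isoforms, Atpif1 and Cycs. Sequences come from RefSeq (GRCm38.p6). Symbols not analysed here are Cox6a2, Cox6c2, Cox7b2, Cox8b and Cox8c.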

Additional observations from a re-analysis of the deposited data

Results flagged for a closer look

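In a group of 4, a library was singled out when its gap to the nearest other exceeded 0.829 of the group's range. This marked 8 of 86 groups checked, and chance marks about 1 in 20. Vehicle replicate 1 was the lowest of its group for Atp5b (11.04, others 11.34 to 11.38), Atp5c1 (9.273, others 9.522 to 9.546) and the mean of complex III (-0.2005, others 0.1432 to 0.166). Among MYCi975 tumours, replicate 4 was the highest for Cox6c (9.405, others 8.727 to 8.766), for Cox7a2l (9.754, others 9.317 to 9.363) and for Cox6b2 (4.793, others at the floor). MYCi975 replicate 3 was the highest for Cox6a1 (6.445, others 6.064 to 6.121), and MYCi975 replicate 2 the lowest for Atp5c1 (9.119, others 9.448 to 9.469).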

How the results depend on the processing

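The count of called genes and members was 0 in all 6 comparisons under every alternative run: no filter on low values or a stricter one, robust or untrended moderation, centring on library medians, quantiles made equal, weighted libraries, fits to the compared groups alone (not for the interaction), the replicate number as a block, and leaving out each library. All 18 named differences kept their sign in the other 23 settings. They were picked for their small p in these same data. Several settings, such as changed moderation or leaving out a library of another group, cannot move an estimate. The kept signs are therefore a weak check. With libraries left out 1 at a time, the complex III median with TMP195 ran from -0.231 to 0.029, above 0 without TMP195 replicate 1. The Cox7a1 relation ran from -0.128 to 0.099, above 0 without combination replicate 3 (0.0074), MYCi975 replicate 2 (0.099) or vehicle replicate 2 (0.023). The cause was not tested. Over all groups 6 of 19 same-numbered pairs had correlated deviations over 0.1 (range -0.302 to 0.215), with every pair over it between TMP195 and vehicle alone. With the replicate block the medians of complexes III, IV and V were -0.06, -0.07 and -0.10 with the combination and -0.13, -0.01 and -0.07 with TMP195, and no call changed. Unknown depth limits the genes near the floor.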
